A study of Mus musculus with 22 samples.

Results

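The genes described here encode the matrix metalloproteases (MMP), the ADAM proteases and their secreted relatives (ADAMTS), the protease-like proteins without a catalytic domain (ADAMTSL) and the tissue inhibitors of metalloproteases (TIMP). They were taken by name from the authors' table of the whole series: a coding gene was a member when its normalized count reached 10 in at least 3 of 22 libraries. Of 67 genes with such a name, 56 were members (17 ADAM, 18 ADAMTS, 5 ADAMTSL, 12 MMP and 4 TIMP genes), out of 18614 genes that passed the same minimum and 21363 listed. A value of 10 or more was present in every library for 41 members. Just inside the threshold lay Adamts14 and Mmp28, which reached it in 9 libraries, and Adam1b, in 10. Just outside it was Mmp12, which reached it in 2 libraries with 798 as its highest value. The other genes left out (Adam3, Adam5, Adam7, Adam28, Adamts13, Mmp3, Mmp8, Mmp13, Mmp25 and Mmp27) reached it in at most 1 library.

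RNA was sequenced from nuclei of the lumbar dorsal horn, the sensory part of the spinal cord, of pDyn-Sun1-GFP mice. In these mice, nuclei of the prodynorphin (pDyn) lineage carry a nuclear membrane protein fused to GFP. Every animal was of this line, and no treatment is named in the labels. Flow sorting gave a GFP+ library of pDyn-lineage nuclei and a GFP- library of the remaining nuclei from each animal, 5000 nuclei each, at postnatal day 7 (P7, 4 animals), P21 (3 animals) and P80 (4 animals). Both sexes are in the labels, but library codes could be joined neither to an animal nor to a sex. Between 4244987 and 10849169 reads per library were assigned to genes (median 5359703). Values below are normalized counts (reads divided by 1 size factor per library), and log2 differences are limma estimates, given as estimate ± standard error (SE), of log2(value + 1). This scale understates the change of low genes. A difference was called when its Benjamini-Hochberg adjusted p over all 18614 genes was under 0.05.

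As background, ADAM proteases sit in the cell membrane and cut the outer part off neighbouring membrane proteins, a step called shedding. ADAMTS proteases are secreted and cut matrix proteins such as the chondroitin sulfate proteoglycans around neurons, while MMPs cut collagens, laminins and many other matrix and surface proteins. TIMPs bind the catalytic zinc of these enzymes and stop them. In the nervous system the families are known for myelin formation, the remodelling of perineuronal matrix, synapse organization and pain after nerve injury. Some ADAMs have lost the catalytic residues and act as receptors: ADAM11, ADAM22 and ADAM23 bind the secreted LGI proteins at synapses and axons.

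The letters that separate a protease from a receptor lie in the zinc site of the catalytic domain, where 3 histidines hold the zinc and a glutamate carries out the cut. These codons were read from the coding sequence of 1 GENCODE transcript per gene (GRCm38). The pattern was found in 39 of 56 members: 10 of 17 ADAM, 17 of 18 ADAMTS and 12 of 12 MMP genes, and 0 of 5 ADAMTSL and 0 of 4 TIMP genes. The exception among ADAMTS genes was Adamts8, in which this pattern is not in the transcript used. The following stretches of 33 bases, 5′ to 3′ on the coding strand, are shown for members on which the results turn. Capitals mark the codons of the 5 fixed residues (histidine, glutamate, histidine, glycine or asparagine, histidine) or, in Adam18, Adam22 and Adam23, the codons at the same places once the encoded proteins are aligned to Adam33.
Adam33: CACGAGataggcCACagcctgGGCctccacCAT
Adam15: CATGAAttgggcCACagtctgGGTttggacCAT
Adam18: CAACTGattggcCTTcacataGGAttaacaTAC
Adam22: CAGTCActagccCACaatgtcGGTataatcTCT
Adam23: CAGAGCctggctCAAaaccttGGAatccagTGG
Adamts4: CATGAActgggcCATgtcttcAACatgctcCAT
Adamts5: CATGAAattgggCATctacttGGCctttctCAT
Adamts9: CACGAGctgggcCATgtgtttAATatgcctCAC
Mmp14: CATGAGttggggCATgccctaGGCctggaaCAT
Mmp16: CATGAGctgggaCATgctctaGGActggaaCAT

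The Adam33 stretch lies in exon 11 at chr2:131055130-131055162 on the minus strand, and that of Adam15 in exon 11 at chr3:89344780-89344812, also minus. Of the receptors, Adam22 has it in exon 13 at chr5:8143064-8143096 (minus) and Adam23 in exon 13 at chr1:63547763-63547795 (plus). Adam18 has it in exon 11 at chr8:24647848-24647880 (minus). Both Mmp14 (chr14:54437627-54437659, plus) and Mmp16 (chr4:18051748-18051780, plus) carry it within exon 5. In the ADAMTS genes an intron splits the site, so that the span from first to last base is longer: exons 3 and 4 in Adamts4 (chr1:171253210-171253915, plus), exons 2 and 3 in Adamts5 (chr16:85878015-85887826, minus) and exons 8 and 9 in Adamts9 (chr6:92905285-92908493, minus). Of the 5 fixed residues, the aligned codons encode 1 in Adam18, 2 in Adam22 and 1 in Adam23. The fourth fixed residue was glycine in 34 sites and asparagine in 5, those of Adamts1, Adamts4, Adamts9, Adamts15 and Adamts20. No stretch of 50 coding bases was shared between members.

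Pdyn checked the sort: it stood between 405 and 663 in the GFP+ libraries and between 0 and 15.7 in the GFP- libraries. All 10 neuron markers were higher in GFP+ nuclei, and the GFP- libraries held neurons and other cells. Summed neuron markers were 15760 to 19250 in GFP+ and 6595 to 14670 in GFP- libraries. GFP+ libraries still held glial RNA: summed oligodendrocyte markers were 8197 to 10970 at P7 and P21 and 2202 to 3031 at P80, against 27570 to 117300 in GFP- libraries. No marker with a value was at 0 in every GFP+ library. Cldn5, Ly6c1 and Slco1a4 of 8 endothelial markers, Lum and Slc6a13 of 7 meningeal fibroblast markers, Tmem119 and C1qa of 8 microglial markers and Kcnj8 of 6 mural markers were at 0 in some of them. Of 4 motor neuron markers, only Chat passed the minimum. In bulk samples, fewer cells of a type and less RNA per cell cannot be told apart.

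**Figure D1:**
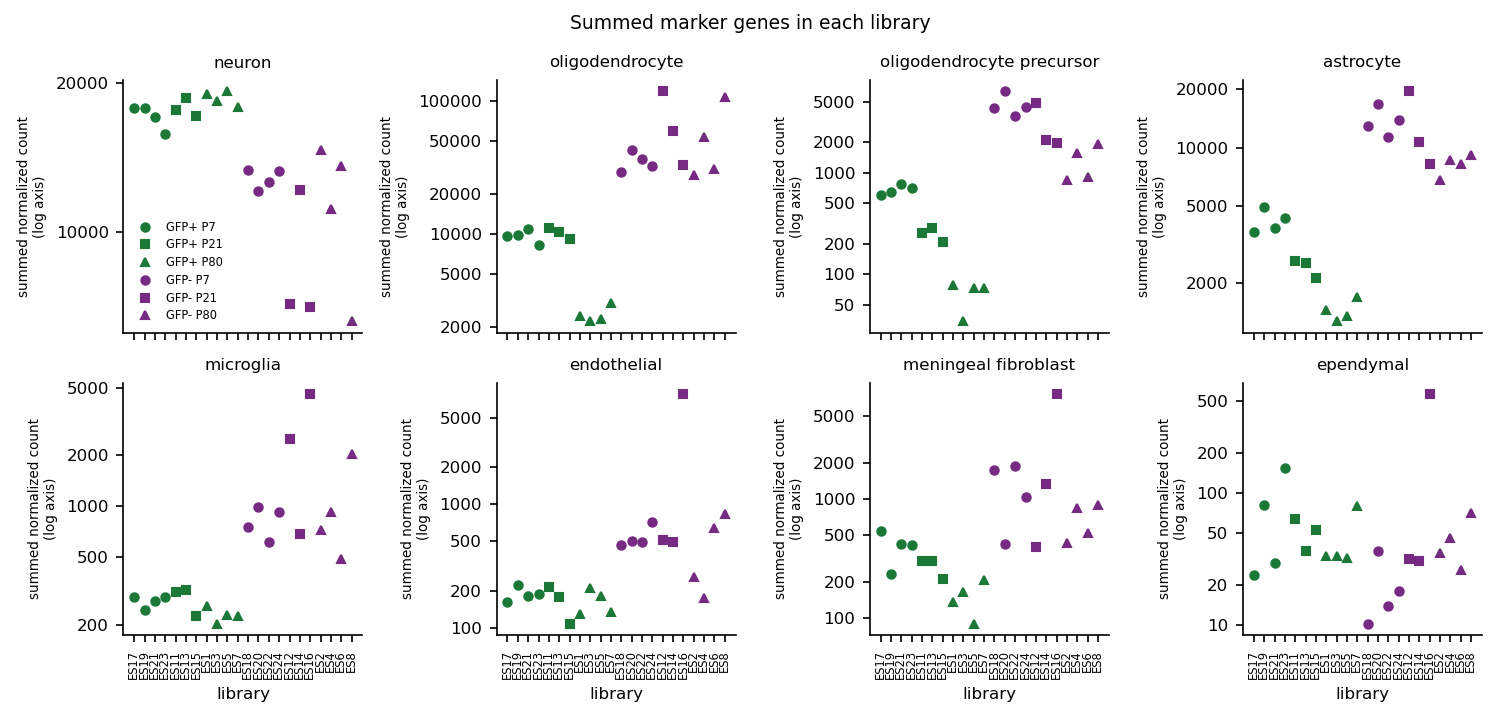
Summed normalized count of the markers of 8 cell types (log axis) in each of 22 libraries; green points are GFP+ and purple points GFP- libraries, with circles for P7, squares for P21 and triangles for P80. The P21 GFP- library ES16 lies far above the rest for endothelial, meningeal fibroblast and ependymal markers, and ES8, ES12 and ES16 have the lowest neuron sums.

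The 3 GFP- libraries ES8 (P80), ES12 and ES16 (both P21) stood apart. Their summed neuron markers were 6595 to 7156, against at least 11110 in every other library. ES12 and ES8 held the highest oligodendrocyte sums (117300 and 105800, against at most 59090 elsewhere). ES16 held endothelial markers at 7762, against at most 831 in the other 21 libraries, and meningeal fibroblast markers at 7678 against at most 1900. Members were high in ES16 too: Mmp2 stood at 927, Adamts1 at 640, Timp2 at 2364 and Timp3 at 2073, and of the genes below the minimum Mmp12 stood at 798, Mmp3 at 171 and Adam28 at 91.9 there. The main counts of members are also given without these libraries. That setting leaves ES14 as the only GFP- library of P21. Averaged differences, P21 comparisons and the interaction then rest on ES14 alone for GFP- nuclei of that age.

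Averaged over the 3 ages, 36 of 56 members differed between GFP+ and GFP- nuclei (64.3%, against 48.2% of all genes tested), 15 higher and 21 lower in GFP+ nuclei. The share called lower was 37.5% against 25.5% of all genes, and the share called higher 26.8% against 22.6%. The median log2 difference over the members was -0.04, against -0.02 over all genes. By family, 6 ADAM genes were higher and 5 lower, 3 ADAMTS genes higher and 8 lower, 1 ADAMTSL gene higher and 3 lower, 4 MMP genes higher and 4 lower, and 1 TIMP gene higher and 1 lower. Among members with the zinc site, 9 were higher and 16 lower of 39. Among those without it, 6 were higher and 5 lower of 17. This split rests on the pattern and the transcript used, and does not sort proteases from other proteins. The 17 include Adamts8, which is among the 6 higher, and Adam1a, read from a transcript of 471 codons. Libraries of the populations did not overlap at any age for 16 members (28.6%, against 15.0% of all genes): Adam33, Adam18 and Mmp24 were above, and Adam9, Adam12, Adam17, Adam19, Adamts1, Adamts2, Adamts4, Adamts5, Adamts9, Adamts12, Adamtsl3, Adamtsl5 and Mmp14 below. The 3 above compare with 6.62% of all genes, and the 13 below with 8.38%. Without ES8, ES12 and ES16, 33 members were called, 12 higher and 21 lower, against 42.0% of all genes.

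**Figure D2:**
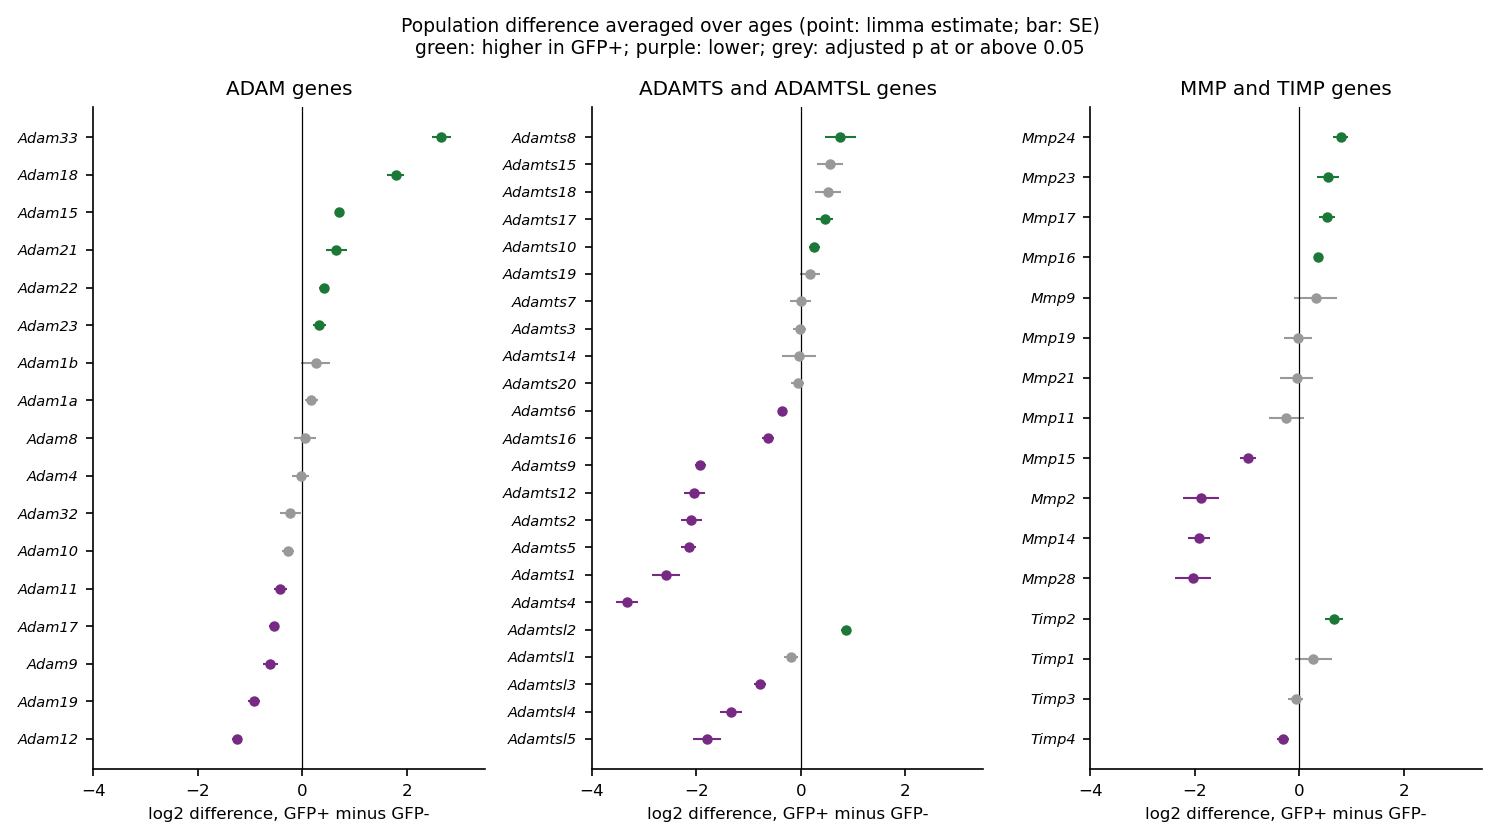
Log2 difference between GFP+ and GFP- nuclei averaged over P7, P21 and P80 for each of the 56 members, as the limma estimate (point) with its SE (bar), in panels of ADAM, ADAMTS with ADAMTSL, and MMP with TIMP genes. Green points were called higher in GFP+ nuclei, purple points lower and grey points not called; the range runs from -3.33 for Adamts4 to 2.67 for Adam33.

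At single ages, 17 members differed at P7 (30.4%, against 17.2% of all genes), 25 at P21 (44.6% against 32.9%) and 27 at P80 (48.2% against 28.0%). Those called higher numbered 4 at P7 (7.06% of all genes were), 9 at P21 (14.7%) and 8 at P80 (12.6%). Those called lower numbered 13 (10.1%), 16 (18.3%) and 19 (15.4%). At every age Adam15, Adam18 and Adam33 were called higher, and Adam12, Adamts1, Adamts2, Adamts4, Adamts5, Adamts9, Adamts12, Adamtsl5 and Mmp14 lower. At P7 the call of Adamts2 (-1.25 ± 0.34, adjusted p = 0.0125) was lost without ES19 (adjusted p = 0.0535). The P7 call of Adamts1 (-1.31 ± 0.45, adjusted p = 0.0477) was lost when any 1 of 16 libraries was left out (adjusted p up to 0.115).

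Adam33, a catalytically active ADAM best known from human airway muscle, had the highest log2 difference between GFP+ and GFP- nuclei among the members. At P7 the GFP+ libraries stood at 149, 156, 164 and 226 and the GFP- libraries at 16.1, 16.6, 17.7 and 19.8. At P21 they stood at 139, 185 and 245 against 10.9, 42.1 and 46.8, and at P80 at 184, 197, 252 and 256 against 43.4, 44.7, 56.1 and 58.8. Every GFP+ library lay above every GFP- library. The log2 difference came to 3.22 ± 0.31 at P7 (adjusted p = 3.53e-07), 2.68 ± 0.35 at P21 (adjusted p = 1.12e-05) and 2.11 ± 0.31 at P80 (adjusted p = 1.6e-05). At P21 it was 2.03 without ES12, in which the gene was lowest. In GFP- nuclei Adam33 rose from P7 to P80 (1.47 ± 0.31, adjusted p = 0.00178), while in GFP+ nuclei the difference was 0.36 ± 0.31 (adjusted p = 0.537). The interaction of age and population was not called (adjusted p = 0.436).

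Adam15, an active ADAM with an integrin-binding disintegrin domain, was higher in GFP+ nuclei by a smaller margin. Its GFP+ libraries stood at 596 to 736 at P7, 540 to 756 at P21 and 546 to 678 at P80. The GFP- libraries stood at 322 to 373, 379 to 559 and 319 to 456. The populations overlapped at P21 only, through ES16 at 559. The log2 difference averaged over ages was 0.71 ± 0.08 (adjusted p = 3.25e-07). At P21 it was 0.50 ± 0.16 (adjusted p = 0.0179), a call lost without ES12, ES14 or ES15 (adjusted p up to 0.112). Adam21, best known from testis, was higher on average (0.65 ± 0.20, adjusted p = 0.0103), but not without ES8, ES12 and ES16.

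The shedding enzymes with the widest known range of substrates were not called higher in GFP+ nuclei. Adam17, which releases tumour necrosis factor and growth factors, stood at 240 to 328 in the 11 GFP+ libraries (median 286) and at 312 to 634 in the GFP- libraries (median 384). It did not overlap between the populations within any age, and its averaged log2 difference was -0.54 ± 0.09 (adjusted p = 2.4e-05). Adam10, the main enzyme that cuts the amyloid precursor and Notch receptors, stood at 599 to 737 in GFP+ libraries and at 583 to 1385 in GFP- libraries, with its highest values in ES8 and ES16. Its averaged difference of -0.27 ± 0.11 was not called (adjusted p = 0.0552). Adam9 had a difference of -0.61 ± 0.15 (adjusted p = 0.00188). Its GFP+ libraries stood at 228 to 277 and its GFP- libraries at 279 to 381, apart from ES16 at 1104.

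Adam12 and Adam19, the meltrins, which are known from muscle fusion and from nerve and heart development, were lower in GFP+ nuclei. Adam12 stood at 74.9, 76.0, 77.2 and 78.1 in GFP+ and 218, 252, 255 and 272 in GFP- libraries at P7. At P80 it stood between 45.7 and 56.6 against 81.0, 91.3, 119 and 151. The populations were apart at each age, and in both every P80 library was below every P7 library. Its averaged log2 difference was -1.25 ± 0.10 (adjusted p = 1.84e-09). For Adam19 the averaged difference was -0.92 ± 0.12 (adjusted p = 1.74e-06), at 166 to 252 in GFP+ and 266 to 691 in GFP- libraries. Its highest values were in ES8 (691) and ES12 (622), the libraries with the highest oligodendrocyte sums. Adam8, Adam1a, Adam1b, Adam4 and Adam32 were not called.

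Among the ADAMs without the zinc site, Adam18 was higher in GFP+ nuclei at every age. Adam18 is known as a sperm surface protein of the mouse testis. It stood at 60.9, 71.8, 78.4 and 83.3 in GFP+ libraries at P7 and at 6.61, 11.1, 14.5 and 20.7 in GFP- libraries. At P21 the values were 58.0, 63.1 and 79.5 against 18.1, 21.5 and 21.8, and at P80 51.0, 67.0, 70.6 and 85.7 against 22.1, 24.4, 31.3 and 35.8. The GFP+ libraries of the 3 ages overlapped, and every GFP- library of P80 was above those of P7 (1.12 ± 0.27, adjusted p = 0.00548). The averaged log2 difference was 1.79 ± 0.16 (adjusted p = 8.89e-09).

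The LGI receptors Adam22 and Adam23, whose codons above encode few of the fixed residues, were slightly higher in GFP+ nuclei. Adam22 stood at 2781 to 4139 in GFP+ libraries (median 3466) and at 1713 to 3514 in GFP- libraries (median 2627). Its averaged log2 difference was 0.41 ± 0.09 (adjusted p = 0.000862). Adam23 stood at 1230 to 1962 against 871 to 1943, with a difference of 0.33 ± 0.12 (adjusted p = 0.0329). That call was lost without any 1 of ES5, ES12, ES13, ES16, ES20, ES21 and ES24 (adjusted p up to 0.0851), and also without ES8, ES12 and ES16 together. The lowest Adam22 and Adam23 values in GFP- nuclei of P21 were those of ES16, and those of P80 were of ES8. The neuron sums were lowest in the same libraries, and their part in the differences was not tested.

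Adam11, the third LGI receptor, took a course of its own with age. In GFP+ nuclei it stood at 502, 598, 701 and 708 at P7, 515, 577 and 596 at P21, and 398, 402, 459 and 497 at P80. In GFP- nuclei it stood at 423, 464, 548 and 634 at P7, 405, 658 and 719 at P21, and 894, 1081, 1115 and 2136 at P80. The populations overlapped at P7 and P21, and at P80 every GFP- library was above every GFP+ library. The highest, 2136, was ES8, which also had the highest P80 oligodendrocyte sum. Its log2 difference came to 0.28 ± 0.21 at P7, -0.04 ± 0.25 at P21 and -1.49 ± 0.21 at P80 (adjusted p = 0.42, 0.922 and 1.48e-05). Without ES8 the P80 difference was -1.23. The change with age differed between the populations (interaction, adjusted p = 0.0121), and this was still called when any 1 library was left out (adjusted p up to 0.0355).

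The ADAMTS proteases held the members with the lowest log2 differences, among them proteoglycan-cutting enzymes. Adamts4, an aggrecanase that is expressed by oligodendrocytes, stood at 78.4, 90.6, 96.3 and 98.1 in GFP+ and 327, 405, 433 and 585 in GFP- libraries at P7. At P21 it stood at 40.1, 59.1 and 82.9 against 281, 439 and 899, and at P80 at 12.4, 12.5, 18.3 and 20.4 against 257, 330, 494 and 867. The GFP- libraries of the 3 ages overlapped, while every GFP+ library of P80 was below every GFP+ library of P21 and P7. The log2 difference came to -2.23 ± 0.34 at P7 (adjusted p = 9.7e-05), -3.02 ± 0.39 at P21 (adjusted p = 1.06e-05) and -4.73 ± 0.34 at P80 (adjusted p = 2.2e-09). Its highest GFP- values were in ES12 (899) and ES8 (867), where oligodendrocyte sums were also highest. Oligodendrocyte markers differed in the same direction: 10 of 10 were lower in GFP+ nuclei on average, with a median log2 difference of -2.89. Their sums in GFP+ libraries were 8197 to 10820 at P7, 9214 to 10970 at P21 and 2202 to 3031 at P80. The part of these markers in the difference of Adamts4 was not tested.

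Adamts5, the other main aggrecanase, stood at 45.3, 45.4, 57.9 and 63.4 in GFP+ and 130, 133, 157 and 167 in GFP- libraries at P7. At P21 it stood at 22.1, 25.2 and 27.2 against 88.2, 145 and 172, and at P80 between 15.6 and 28.6 against 81.4, 138, 140 and 174. The populations did not overlap at any age, and the averaged log2 difference was -2.14 ± 0.15 (adjusted p = 1.38e-10). Within P80 its lowest GFP- value was that of ES8, unlike Adamts4. Adamts9, which cuts versican and aggrecan, stood at 183 to 207 in GFP+ and 660 to 763 in GFP- libraries at P7, 70.2 to 119 against 359 to 482 at P21, and 52.2 to 93.1 against 232 to 271 at P80. Its log2 difference came to -1.82 ± 0.18 at P7, -2.16 ± 0.20 at P21 and -1.78 ± 0.18 at P80, and it fell with age in both populations.

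**Figure D3:**
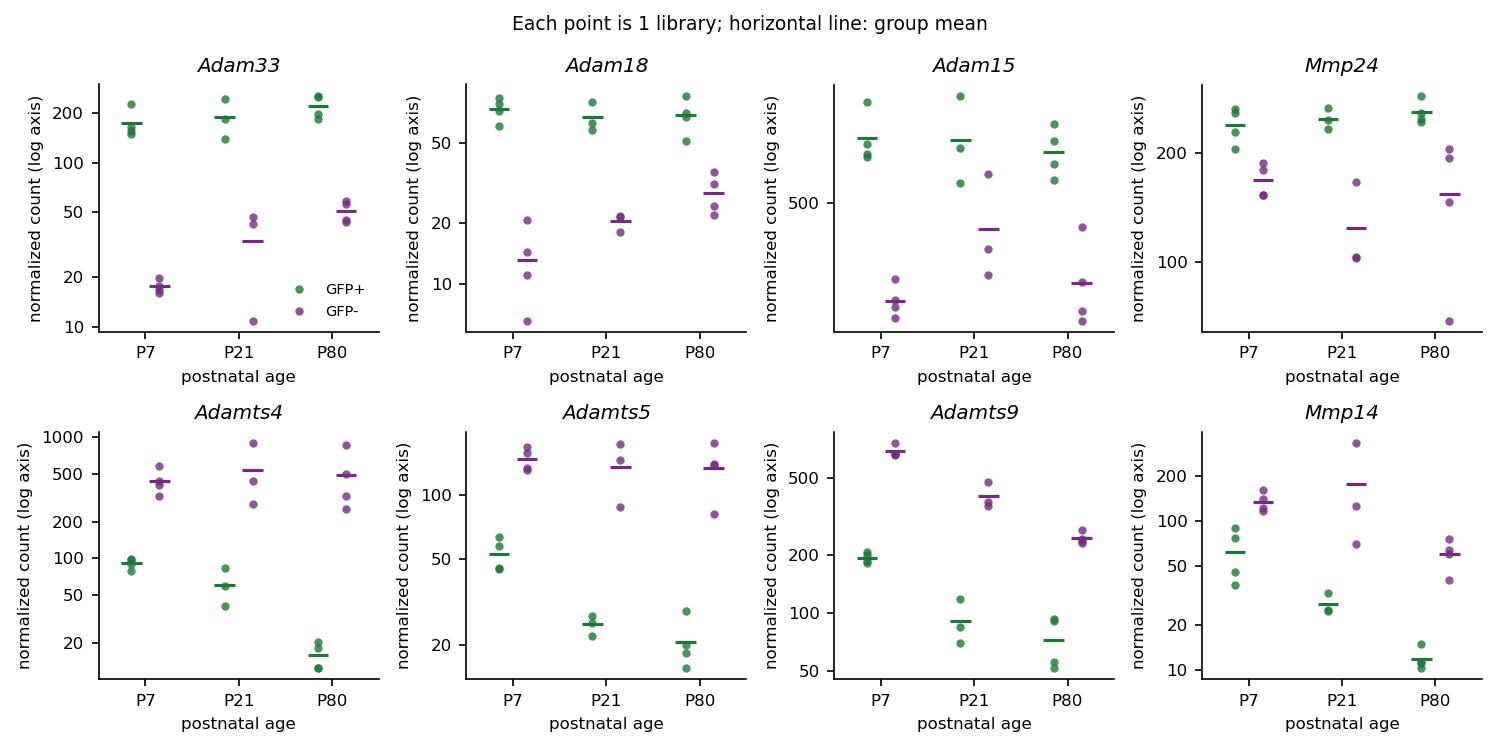
Normalized count (log axis) of 8 members in each library against postnatal age; each point is 1 library, green for GFP+ and purple for GFP- nuclei, and the horizontal line is the group mean. Adam33, Adam18 and Mmp24 have every GFP+ library above the GFP- libraries of the same age, and Adamts4, Adamts5, Adamts9 and Mmp14 have every GFP+ library below them.

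Adamts1, an inducible proteoglycan-cutting enzyme also known for inhibiting blood vessel growth, had an averaged log2 difference of -2.58 ± 0.27 (adjusted p = 9.4e-08). Its GFP+ libraries stood at 6.23 to 37.5 and its GFP- libraries at 68.4 to 143, apart from ES16 at 640. At P21 the difference was -3.25 ± 0.52, and -2.31 without ES16. The related Adamts8, Adamts15 and Adamts20 were not called lower: their averaged differences were 0.76 ± 0.30, 0.56 ± 0.24 and -0.06 ± 0.12. Only that of Adamts8 was called (adjusted p = 0.0422), and the call was lost without any 1 of 15 libraries (adjusted p up to 0.122), with a pseudocount of 5 and by edgeR. ES16 held 129 of Adamts8, against at most 21.7 in the other GFP- libraries. When ES16 was left out, Adamts8 was called higher at P21 (1.06, adjusted p = 0.0427) and P80 (1.16, adjusted p = 0.00433). Adamts15 was then called higher as well, at P21 (1.20, adjusted p = 0.0085) and P80 (0.83, adjusted p = 0.0141), and Adamts20 at neither age.

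Of the procollagen-processing enzymes, Adamts2 was lower in GFP+ nuclei (-2.09 ± 0.21, adjusted p = 2.99e-08), and Adamts3 and Adamts14 were not called. Adamts2 stood at 18.9 to 65.7 in GFP+ libraries. In GFP- libraries it stood at 56.4 to 80.3 at P7, 171 to 331 at P21 and 117 to 396 at P80. Adamts12, which cuts cartilage oligomeric matrix protein, was lower too (-2.04 ± 0.21, adjusted p = 3.9e-08), while its close relative Adamts7 was not called (adjusted p = 0.989). Adamts16 (-0.63 ± 0.12, adjusted p = 0.000134) and Adamts6 (-0.36 ± 0.08, adjusted p = 0.000789) were lower by less. Adamts17, known from a human disorder of the lens and skeleton, was higher (0.46 ± 0.15, adjusted p = 0.0185). Adamts10, known from the same disorder, was called higher (0.26 ± 0.11, adjusted p = 0.0436), and this was lost without any 1 of 16 libraries and by edgeR.

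The ADAMTSL proteins lack the catalytic domain, and several bind fibrillin microfibrils. Of the 5 genes, 3 were called for the interaction of age and population. Adamtsl2, known for binding fibrillin and a latent TGF-beta binding protein, stood at 86.4, 100, 103 and 110 in GFP+ and 70.0, 70.2, 91.2 and 97.3 in GFP- libraries at P7. At P21 it stood at 146, 177 and 199 against 107, 119 and 135, and at P80 at 143, 153, 157 and 183 against 40.3, 43.4, 45.1 and 54.9. It overlapped at P7 and was apart at P21 and P80. The log2 difference came to 0.29 ± 0.16 at P7, 0.53 ± 0.18 at P21 and 1.77 ± 0.16 at P80 (adjusted p = 0.23, 0.0296 and 2.32e-08), and the P21 call was lost without ES11, ES12 or ES13 (adjusted p up to 0.127). The interaction was called (adjusted p = 0.00473; up to 0.0185 with any 1 library left out).

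Adamtsl1 reversed its order between P7 and P80. It stood at 246, 255, 314 and 331 in GFP+ and 116, 139, 140 and 155 in GFP- libraries at P7. At P21 the values were 169, 187 and 200 against 173, 222 and 318, and at P80 165, 167, 171 and 180 against 250, 394, 451 and 682. Every GFP+ library was above the GFP- libraries at P7 (1.05 ± 0.22, adjusted p = 0.00156) and below them at P80 (-1.28 ± 0.22, adjusted p = 9.37e-05). The interaction was called (adjusted p = 0.00249; up to 0.0109 with any 1 library left out). Adamtsl1 partly overlaps Sh3gl2 on the same strand in the annotation. Sh3gl2 stood at 494 to 579 in GFP+ and 268 to 539 in GFP- libraries, and its P80 and P7 ranges in GFP- nuclei overlapped.

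Adamtsl4, known for fibrillin assembly in the eye, stood at 32.1 to 93.2 in GFP+ libraries at all ages. In GFP- libraries it stood at 60.5 to 84.1 at P7, 123 to 219 at P21 and 205, 270, 454 and 836 at P80, with the highest value in ES8. The log2 difference came to -0.14 ± 0.34 at P7, -1.26 ± 0.40 at P21 and -2.63 ± 0.34 at P80 (adjusted p = 0.848, 0.0189 and 4.81e-06). Without ES8 the P80 difference was -2.25. The P21 call was lost without ES12, ES15 or ES16 (adjusted p up to 0.0878). With ES8, ES12 and ES16 all left out, the P21 difference was -0.78, with ES14 as the only GFP- library of that age. Adamtsl3 (-0.77 ± 0.12, adjusted p = 9.78e-06) and Adamtsl5 (-1.80 ± 0.27, adjusted p = 8.46e-06) were lower on average. For Adamtsl5 the P21 difference of -1.92 ± 0.51 was -1.26 without ES16, where it was no longer called (adjusted p = 0.054). Its P7 call (-1.58 ± 0.44) was lost without ES18 (adjusted p = 0.0585).

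Membrane-anchored MMPs were found on either side. Mmp14, which activates MMP2 and cuts collagen at the cell surface, stood at 37.5, 45.4, 76.5 and 89.8 in GFP+ and 117, 122, 140 and 162 in GFP- libraries at P7. At P21 it stood at 25.0, 25.2 and 33.1 against 70.8, 127 and 334, the last being ES16, and at P80 at 10.4, 11.2, 11.3 and 15.0 against 40.5, 60.2, 64.2 and 76.1. The populations did not overlap at any age. The averaged log2 difference was -1.92 ± 0.21 (adjusted p = 1.4e-07). At P21 it was -2.35 ± 0.40, and -1.75 without ES16. At P7 it was -1.18 ± 0.35, a call lost without ES17, ES20, ES21 or ES24 (adjusted p up to 0.0798). Mmp15 was lower as well (-0.98 ± 0.15, adjusted p = 8.75e-06).

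Mmp24, a membrane MMP known to cut N-cadherin in sensory neurons, was higher in GFP+ nuclei. Its GFP+ libraries stood at 205, 227, 257 and 263 at P7, 233, 246 and 266 at P21, and 242, 247, 257 and 287 at P80. The GFP- libraries stood at 152 to 188, 102 to 166 and 68.7 to 205. Every GFP+ library was above the GFP- libraries of its age, with the lowest GFP- value in ES8. The averaged log2 difference was 0.80 ± 0.14 (adjusted p = 8.02e-05), with 1.04 ± 0.27 at P21 and 0.86 ± 0.24 at P80. At P80 it was 0.52 without ES8.

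Mmp16, another membrane MMP, stood at 812, 879, 1026 and 1089 in GFP+ and 1056, 1068, 1147 and 1246 in GFP- libraries at P7. At P21 the values were 870, 958 and 991 against 421, 730 and 746, and at P80 838, 848, 874 and 911 against 393, 536, 550 and 622. The GFP+ level kept its range while the GFP- level was lower after P7 (-1.12 ± 0.15 at P80, adjusted p = 2.91e-05). The log2 difference came to -0.25 ± 0.15 at P7, 0.62 ± 0.18 at P21 and 0.74 ± 0.15 at P80 (adjusted p = 0.297, 0.0112 and 0.000896). The P21 call was lost without ES16 (0.35, adjusted p = 0.0869). Mmp17, anchored by a lipid, was higher on average (0.53 ± 0.16, adjusted p = 0.00801), but not without ES8, ES12 and ES16.

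Of the secreted MMPs, Mmp2, the constitutive gelatinase, was lower in GFP+ nuclei. It stood at 19.8, 20.4, 33.1 and 44.5 in GFP+ and 35.0, 49.9, 51.6 and 57.2 in GFP- libraries at P7. At P21 it stood at 13.6, 15.0 and 19.7 against 67.4, 69.5 and 927, and at P80 at 10.7, 11.2, 13.5 and 17.4 against 23.5, 29.1, 51.5 and 82.3. The populations overlapped at P7 and were apart at P21 and P80. The averaged log2 difference was -1.88 ± 0.35 (adjusted p = 0.000126). At P21 it was -3.28 ± 0.66, and -2.04 without ES16, in which endothelial and meningeal fibroblast markers were high. It was -3.92 without ES12 and -3.89 without ES14. At P80 it was -1.60 ± 0.57 (adjusted p = 0.041), lost without any 1 of ES1, ES3, ES4, ES5, ES7 and ES8. The part of vascular and meningeal cells in these values was not tested.

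Mmp9, the inducible gelatinase, was low in both populations, at 4.28 to 23.9 in GFP+ and 0.991 to 44.3 in GFP- libraries, and was not called (0.32 ± 0.41, adjusted p = 0.557). Mmp28 was lower in GFP+ nuclei (-2.04 ± 0.34, adjusted p = 3.14e-05), at 0 to 9.05 against 5.59 to 50.3, the last being ES16. The gene passed the minimum of 10 through GFP- libraries alone. Its place in the counts of members called lower is therefore no independent support for them. At P21 its difference of -3.15 ± 0.64 was -2.52 without ES15 and also -2.52 without ES16. Mmp23 was called higher (0.54 ± 0.21, adjusted p = 0.0382), a call lost without any 1 of 13 libraries. Mmp11, Mmp19 and Mmp21 were not called, and ES16 held the highest Mmp11 (95.2) and Mmp19 (268).

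Of the 4 inhibitors, Timp2, which also takes part in the activation of MMP2 by MMP14, was higher in GFP+ nuclei. It stood at 710, 803, 804 and 933 in GFP+ and 459, 463, 464 and 562 in GFP- libraries at P7. At P21 the values were 1180, 1419 and 1605 against 450, 952 and 2364, and at P80 1457, 1553, 1660 and 1806 against 876, 954, 961 and 967. The populations were apart at P7 and P80 and overlapped at P21, through ES16 at 2364. The averaged log2 difference was 0.66 ± 0.17 (adjusted p = 0.00332). At P80 it was 0.78 ± 0.28 (adjusted p = 0.0453), a call that any 1 of 19 libraries left out could end (adjusted p up to 0.12). When ES16 was left out, the P80 call held (0.78, adjusted p = 0.000513), and Timp2 was also called higher at P21 (1.09, adjusted p = 0.000411). Timp4 was lower (-0.31 ± 0.11, adjusted p = 0.0265), a call lost without ES12, ES14, ES15 or ES19.

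Timp3, a matrix-bound inhibitor that also blocks ADAM17 and aggrecanases, stood at 582 to 947 in GFP+ and 576 to 842 in GFP- libraries, apart from ES16 at 2073. Timp1 stood at 7.41 to 37.3 against 5.43 to 36.1, apart from ES16 at 130. Neither was called (adjusted p = 0.727 and 0.553). Timp1, Timp3 and Timp4 lie within Syn1, Syn3 and Syn2 on the opposite strand. Syn1 (0.81 ± 0.11) and Syn3 (1.08 ± 0.16) were higher in GFP+ nuclei, as was Syn2 (0.29 ± 0.10). The sources used here do not say whether strand was used in counting, so reads of these inhibitors and of the synapsins may not be told apart.

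Among ages in GFP+ nuclei, 13 members differed between P7 and P80 (23.2%, against 9.39% of all genes), 3 higher (3.48% of all genes were) and 10 lower (5.91%) at P80. Between P7 and P21, 5 members differed (8.93% against 2.33%), 1 higher (0.865%) and 4 lower (1.46%), and between P21 and P80 only Adamts4 (1.79% against 0.242%). The 10 that fell by P80 were Adamts4, Mmp14, Adamts12, Adamts9, Adamts5, Adamts16, Adamts20, Adamts10, Adamtsl1 and Adam12. The 3 that rose were Mmp23, Timp2 and Adamtsl2. The median log2 difference over the members was -0.12, against -0.03 over all genes. Without ES8, ES12 and ES16, 25 members were called, 7 higher and 18 lower, from the same GFP+ libraries, against 20.8% of all genes.

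Adamts4 fell most in GFP+ nuclei, by 2.47 ± 0.34 (SE) on the log2 scale from P7 to P80 (adjusted p = 5.76e-05). Mmp14 had a difference of -2.21 ± 0.35 (adjusted p = 0.000213), Adamts12 of -1.83 ± 0.34 (adjusted p = 0.00114), Adamts9 of -1.44 ± 0.18 (adjusted p = 1.19e-05), Adamts5 of -1.34 ± 0.24 (adjusted p = 0.000914) and Adamts16 of -1.22 ± 0.19 (adjusted p = 0.000255). For Adamts5, Adamts9, Adamts12 and Adamts16 a fall was already called at P21, from -1.05 for Adamts5 to -1.54 for Adamts12. At P21 the calls of Adamts5 and Adamts12 were lost without any 1 of several libraries (ES11, ES13, ES19, ES21 and ES23 for both, and also ES15 and ES17 for Adamts5). Adamts4 differed between P21 and P80 by -1.84 ± 0.37 (adjusted p = 0.0292), a call lost without ES1, ES5, ES11 or ES13 (adjusted p up to 0.313) and by edgeR.

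Glial markers fell in the same GFP+ libraries. From P7 to P80, 8 of 10 oligodendrocyte markers were lower with a median log2 difference of -1.79, 5 of 5 measured oligodendrocyte precursor markers with a median of -3.02, and 7 of 8 astrocyte markers with a median of -1.91. Summed precursor markers were 609 to 782 at P7, 208 to 285 at P21 and 34.3 to 79.0 at P80, and summed astrocyte markers 3653 to 4945, 2120 to 2591 and 1265 to 1695. Of 10 neuron markers, 1 rose and 2 fell. The part of glial RNA in the falls of the proteases was not tested.

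Timp2 rose in both populations from P7 to P80, by 0.997 ± 0.28 in GFP+ (adjusted p = 0.0297) and 0.95 ± 0.28 in GFP- nuclei (adjusted p = 0.0257). The GFP+ call was lost without any 1 of ES1, ES3, ES5, ES7, ES17, ES21 and ES23, although the P7 and P80 libraries did not overlap in either population. Mmp23 rose in GFP+ nuclei (1.17 ± 0.35, adjusted p = 0.0357), lost without any 1 of ES1, ES5, ES7, ES17, ES19 and ES23. Adamtsl2 rose in GFP+ (0.66 ± 0.16, adjusted p = 0.0087) and fell in GFP- nuclei (-0.82 ± 0.16, adjusted p = 0.000861). Adam12 (-0.57 ± 0.17), Adamtsl1 (-0.73 ± 0.22) and Adamts20 (-0.76 ± 0.20) were lower in GFP+ nuclei of P80. These calls were lost without any 1 of ES1, ES3, ES5, ES17, ES19, ES21 and ES23 for Adam12 (and with TMM scaling), of ES1, ES3, ES5, ES7, ES19 and ES23 for Adamtsl1, and of ES5, ES19 and ES23 for Adamts20.

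**Figure D4:**
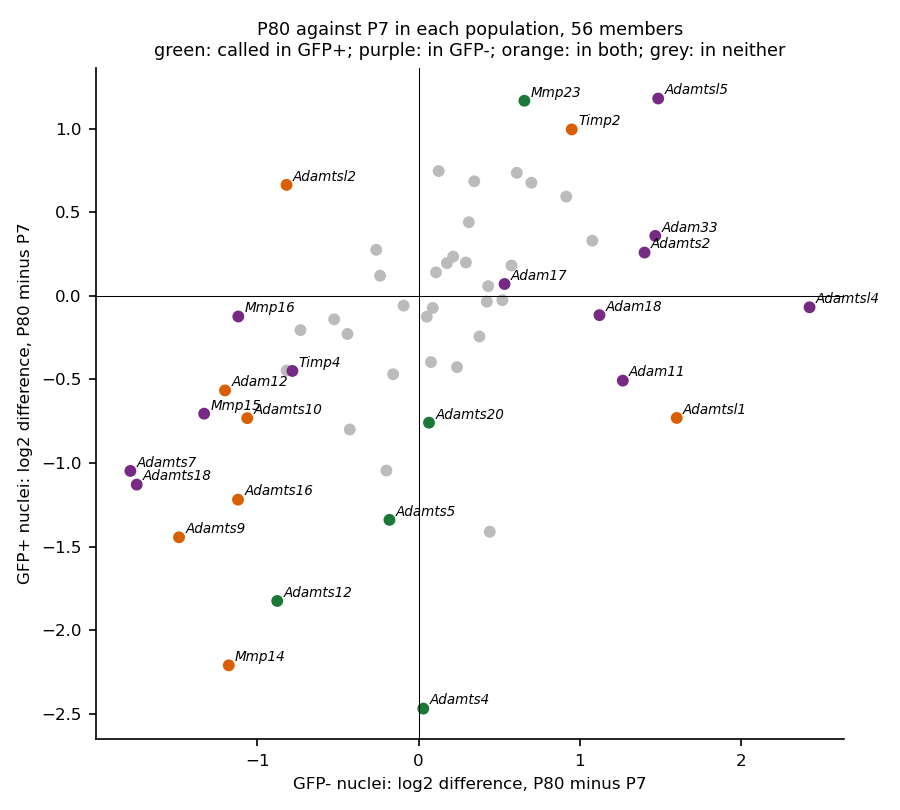
Log2 difference between P80 and P7 in GFP+ nuclei (vertical axis) against that in GFP- nuclei (horizontal axis) for the 56 members. Orange points were called in both populations (8 members), green in GFP+ nuclei alone, purple in GFP- nuclei alone and grey in neither; Adamts4 is lowest in GFP+ nuclei at -2.47, and Adamtsl4 is farthest right at 2.43.

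In GFP- nuclei, 20 members differed between P7 and P80 (35.7%, against 16.3% of all genes), 9 higher (7.56% of all genes were) and 11 lower (8.77%). Between P7 and P21 there were 15 (26.8% against 10.1%), 7 higher (5.03%) and 8 lower (5.07%), and between P21 and P80 there were 2 (3.57% against 1.95%), Adam11 and Adamtsl2. These last comparisons rest on the P21 group with ES12 and ES16. By edgeR they gave 23 calls (14 higher and 9 lower) and 10 calls. Of all genes, edgeR called 17.5% (11.8% higher and 5.68% lower) and 7.72%. Fits of only the groups compared gave 1 and 0 members, with 115 and 1 of all genes called. With ES8, ES12 and ES16 left out, the P21 group held ES14 alone, so no conclusion is drawn from the counts of that setting. The Adam11 call was lost without ES16 (adjusted p = 0.107). Adamtsl4 rose most from P7 to P80 (2.43 ± 0.34, adjusted p = 4.23e-05), followed by Adamtsl1 (1.60 ± 0.22, adjusted p = 2.11e-05). Those with the largest falls were Adamts7 (-1.79 ± 0.34, adjusted p = 0.000777) and Adamts18 (-1.75 ± 0.42, adjusted p = 0.00547). Mmp15 (-1.33 ± 0.24, adjusted p = 0.000488) and Timp4 (-0.78 ± 0.19, adjusted p = 0.0051) fell too.

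Of the 8 members called from P7 to P80 in both populations, 6 moved the same way: Adam12, Adamts9, Adamts10, Adamts16 and Mmp14 fell and Timp2 rose. The GFP- calls of Mmp14 (-1.18 ± 0.35, adjusted p = 0.0221) and Timp2 depended on single libraries. The first was lost without ES2, ES20 or ES24 (adjusted p up to 0.0705) and the second without ES4, ES6, ES20, ES22 or ES24 (up to 0.0604). When ES16 was left out, the adjusted p was 0.00244 for Mmp14 and 0.000141 for Timp2. Adamts9 fell by nearly the same amount, with -1.44 ± 0.18 in GFP+ and -1.49 ± 0.18 in GFP- nuclei (interaction adjusted p = 0.704). Adamtsl1 and Adamtsl2 moved in opposite directions. Oligodendrocyte markers in GFP- nuclei had 2 of 10 higher and none lower at P80 than at P7, and precursor markers 4 of 5 lower.

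The change with age differed between the populations for 6 members (10.7%, against 0.951% of all genes): Adam11, Adamts4, Adamtsl1, Adamtsl2, Adamtsl4 and Mmp16. Adam11, Adamtsl1 and Adamtsl2 were called whichever single library was left out. The call of Adamts4 (adjusted p = 0.0246) was lost without ES1, ES4, ES5, ES18, ES19, ES21, ES22 or ES24 (adjusted p up to 0.07), that of Adamtsl4 (adjusted p = 0.0292) without any 1 of 12 libraries (up to 0.0755) and that of Mmp16 (adjusted p = 0.039) without any 1 of 16 (up to 0.111). Without ES8, ES12 and ES16 the test rested on ES14 alone for GFP- nuclei of P21, so no conclusion is drawn from its count. Of 10 oligodendrocyte markers, 7 were also called for the interaction, and their part in these courses was not tested.

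**Figure D5:**
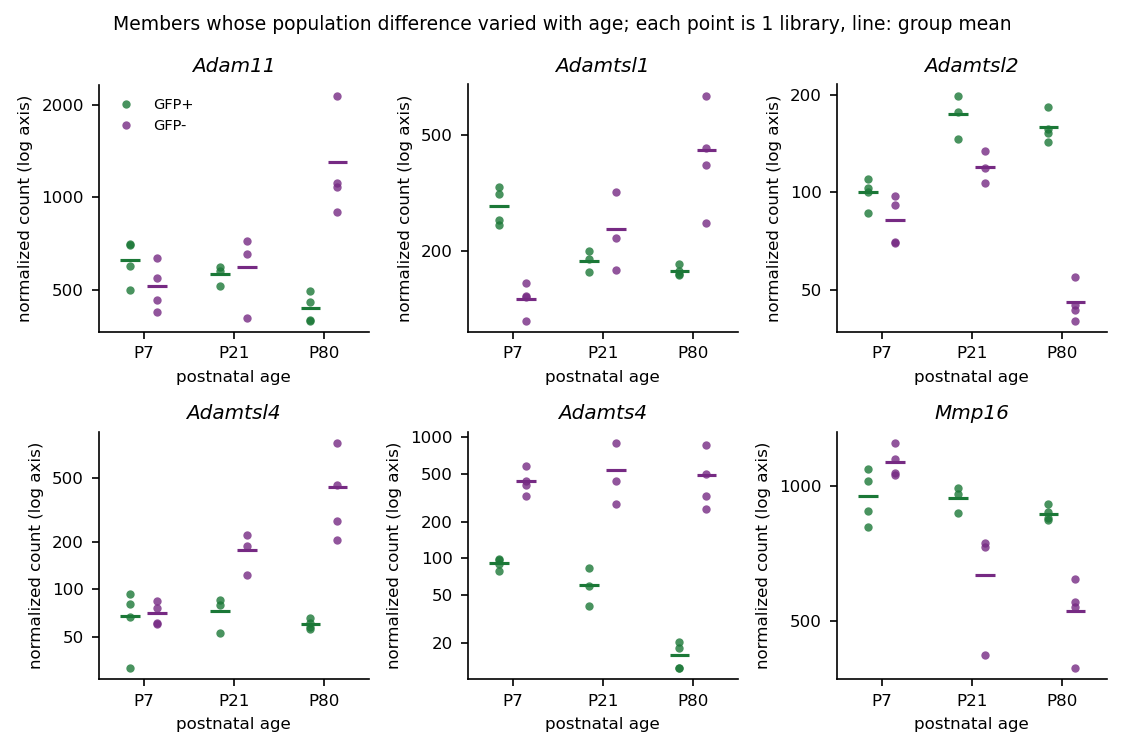
Normalized count (log axis) of the 6 members with a called interaction of age and population, against postnatal age; each point is 1 library, green for GFP+ and purple for GFP- nuclei, and the line is the group mean. Adam11, Adamtsl1 and Adamtsl4 are highest in GFP- nuclei of P80, Adamtsl2 and Mmp16 are lowest there, and Adamts4 is lowest in GFP+ nuclei of P80.

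Genes that work with these proteases were taken from lists, whose counts are read against the 48.2% of all genes called on average, 22.6% higher and 25.5% lower. With 3 to 12 measured genes a list, nothing particular to a list can be read from its count. Among regulators of ADAM10 and ADAM17, 1 of 8 measured genes was higher and 4 were lower in GFP+ nuclei on average. Tspan33 (1.22 ± 0.12) was the higher and Tspan15 (-2.55 ± 0.24) the lowest of these tetraspanins, which carry ADAM10 to the cell surface. Of the 4 LGI ligands, Lgi4 (-2.15 ± 0.19), known for myelination in peripheral nerve, and Lgi3 (-1.14 ± 0.14) were lower, and the other two were not called. Among matrix substrates, 1 of 8 was higher, the link protein Hapln4 (0.81 ± 0.26), and 5 were lower, with Hapln2, the link protein of myelinated axons, at -3.32 ± 0.25.

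Of 12 surface substrates of ADAMs, 6 were higher and 3 lower, from Notch1 at -2.55 ± 0.16 to the adhesion molecule L1cam at 1.05 ± 0.12. Of 8 other inhibitors of extracellular proteases, 4 were higher and 2 lower, from Serpine2 (-1.72 ± 0.13) to the proteoglycan Spock1 (0.87 ± 0.10). Of 4 proprotein convertases, which cut the propeptide off many ADAMs and MMPs, 2 were higher, with Pcsk5 at 0.94 ± 0.12. Of 3 measured plasminogen genes, Plg was called higher (1.63 ± 0.66, adjusted p = 0.0474), with GFP+ libraries spread from 2.47 to 235, and Plau was the lowest (-1.69 ± 0.46). In GFP+ nuclei from P7 to P80, regulators had 1 gene higher and 2 lower, matrix substrates 1 and 3, surface substrates 1 and 2, and other inhibitors 0 and 2, against 3.48% and 5.91% of all genes, while no LGI ligand, convertase or plasminogen gene was called. The called extremes of these lists were Tspan17 (0.82 ± 0.22) and Tspan15 (-1.71 ± 0.39), Hapln4 (1.64 ± 0.42) and the proteoglycan gene Vcan (-1.59 ± 0.24), Prnp (1.13 ± 0.17) and Notch1 (-2.18 ± 0.26), and Reck (-0.57 ± 0.13) and Serpine2 (-1.23 ± 0.21).

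In the authors' deposited table, 36 members were called over all ages, and 35 of them were called here too. At single ages the authors' deposited tables called 24 members at P7, 13 at P21 and 28 at P80, of which 16, 13 and 25 were called here. The numbers called here were 17, 25 and 27. Of the members called here at every age, the authors did not call Adam12, Adam15 and Adamtsl5 at P21 (their adjusted p = 0.0799, 0.195 and 0.0794). Adamtsl5 was not called by them at P7 either (their adjusted p = 0.0561). Every member the authors called in these comparisons had the same sign in both fits. Their test across ages in GFP+ nuclei called 21 members and was not repeated here, where 13 differed between P7 and P80. The authors' calls included Adam4, Adam8, Adam11, Adam22, Adamts1, Adamts7, Adamts15, Adamts18 and Mmp15, which were not called between ages in GFP+ nuclei here. Adam12, called here, was not called by them (their adjusted p = 0.119).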

How the data were processed

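Nuclear RNA of 22 sorted libraries was measured, 5000 nuclei each. Per the labels' protocols it was amplified with 15 PCR cycles (NuGEN SoLo RNA-Seq System v2). Per the submitters' processing notes the authors used Trim Galore, cutadapt, STAR, HTSeq and DESeq2. No versions, genome build or strand setting appear in the sources used here. The deposited expression values are a signal made by the authors: reads per gene over a library's size factor. They were used without further scaling. Whole reads could be recovered for 100% of values within a tolerance of 0.01, with 1 read worth 0.547 to 1.31. The authors also deposited log2 fold changes, test statistics (a score per gene) and p-values with false discovery rates, used only for the comparison with their table. Library codes (ES1 to ES24) were joined to an age by the sheet per age, per the file headers, and to GFP+ by the table of GFP+ nuclei across ages, but to no animal.

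limma 3.58.1 (R 4.3.3; trend and robust options) was fitted to log2(value + 1) over 6 group means for the 18614 genes with at least 10 in at least 3 libraries. P-values were adjusted by Benjamini-Hochberg over all of them. The interaction is limma's F test over both later ages. The fit and edgeR 4.0.16 were tested on simulated data. Alternatives were pseudocounts of 0.5 and 5, no filter, TMM scaling, edgeR's quasi-likelihood test on the recovered reads, only the groups compared, and each library left out. Values were given for well-known members of each role, for up to 8 called members at either end of each comparison and for those called for the interaction. Adam9, Adam19, Adamts6, Adamts15, Adamts17, Mmp11 and Mmp19 were added after their values were seen. The members and lists were chosen with earlier results of these data known. Zinc sites and gene overlaps were read from GENCODE vM21 (GRCm38). The p-values measure the spread between libraries of different animals within groups, pooled over all 6 groups. A comparison within GFP+ nuclei therefore also draws on the spread of the GFP- libraries. Each animal gave a GFP+ and a GFP- library, which were fitted as independent.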

Additional observations from a re-analysis of the deposited data

Results flagged for a closer look

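The following values are given without explanation. In 11 of 160 groups of 4 libraries, 1 library lay far from the other members of its group by a test that flags about 1 in 20 groups by chance. Of these, 4 were in ES8 of the P80 GFP- group: Adamts16 at 212.5 was below its group, Adamtsl5 at 25.32 and Timp2 at 876.3 were below theirs, and Mmp15 at 179.1 was above. In the P7 GFP- group, ES24 was low for Adam10 (582.9) and high for Adamts10 (781.2). ES20 was high for Adamts9 (763.1) and low for Adamtsl3 (171.0). ES18 was high for Timp2 (562.0) and Mmp23 (21.26). The only GFP+ library so placed was ES5 of P80, low for Mmp17 (77.08).

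The difference between GFP+ and GFP- nuclei changed with age, by limma's interaction test, for 6 members. The adjusted p was 0.00249 for Adamtsl1, 0.00473 for Adamtsl2, 0.0121 for Adam11, 0.0246 for Adamts4, 0.0292 for Adamtsl4 and 0.039 for Mmp16.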

How the results depend on the processing

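Of 167 values of single members that were followed, 159 were called, and none of these changed sign under any alternative run. Values that were not called could change sign: the averaged difference of Mmp9, 0.32, was -0.07 without ES12, and that of Adam11 at P21, -0.04, was 0.12. Calls were lost for 2 and 3 of the 159 with pseudocounts of 0.5 and 5, for 4 without the filter, for 3 with TMM scaling, for 7 by edgeR and for 22 without ES8, ES12 and ES16, a setting chosen after seeing the data. With only the groups compared, 29 of 121 were lost. The number of called members over all ages, 36, ran from 32 to 38 with each library left out. At single ages it ran from 13 to 21 at P7, 21 to 29 at P21 and 23 to 34 at P80. In GFP+ nuclei it ran from 2 to 8 between P7 and P21, 0 to 1 between P21 and P80 and 8 to 19 between P7 and P80. In GFP- nuclei these ranges were 6 to 24, 1 to 12 and 18 to 26, and for the interaction 3 to 7. The numbers called over all genes moved too. In GFP- nuclei between P7 and P21, 6 members without ES22 came with 1122 genes, and 24 without ES14 with 3892. Between P21 and P80, 1 member without ES16 came with 174 genes, and 12 without ES14 with 2637. In GFP+ nuclei between P7 and P80, 8 members without ES5 came with 1083 genes, and 19 without ES16 with 2614. Fits of only the groups compared, with fewer libraries, gave 14 members at P21, 13, 2 and 24 in GFP+ nuclei and 1 and 0 in GFP- nuclei for the comparisons with P21 (1 of all genes was called for the latter). Over all genes these counts were 2729, 1514, 401, 4143, 115 and 1. Without ES8, ES12 and ES16 there were 26 members at P7, 13, 2 and 25 in GFP+ nuclei, 9 and 1 in GFP- nuclei for the comparisons with P21, and 9 for the interaction. Over all genes these were 5648, 1729, 218, 3867, 808, 72 and 538, against 3203, 433, 45, 1747, 1879, 363 and 177 with every library. In the setting without ES8, ES12 and ES16, ES14 was the only GFP- library of P21. Its counts for comparisons with that group and for the interaction therefore cannot show whether those calls hold. Between P21 and P80 in GFP+ nuclei, a pseudocount of 5 left 0 members and 21 genes, and edgeR 0 members and 5 genes. By edgeR, GFP- nuclei gave 23 members between P7 and P21, with 2202 genes higher and 1058 lower against 936 and 943 by limma. Between P21 and P80 edgeR gave 10 members, with 300 genes higher and 1137 lower against 146 and 217. The cause of these shifts was not tested. No paired analysis was possible because the library codes carry no animal or replicate number. Members near the minimum rest on few reads; Mmp28 stood at 0 to 9.05 in GFP+ libraries, and 1 read is worth 0.547 to 1.31 over all libraries.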
